A study of Vitis vinifera with 8 samples.

Results

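Of 25771 grape genes listed in each library, 295 (1.14%) kept nearly the same RPKM before and after véraison and with and without a heat pulse. RPKM is the number of reads of a gene scaled to its length and to the reads of the library. A gene with a steady RPKM therefore kept a steady share of the reads. The genes were chosen by their RPKM values: at least 20 in all 8 libraries, and a highest value at most 1.3 times the lowest. Of 3309 genes that reached 20 RPKM in every library, 298 met the limit of 1.3, which is 9.01%. A pair of these was left out because it carries a gene symbol, and 1 because it was above 1000 RPKM in all post-véraison libraries. Since the same 8 libraries chose the genes, their steadiness is a description and was given no test. Of the 295 genes, 278 have a placeholder name (LOC and a number) in the RefSeq table used here and 17 matched no entry of it. That table gives no product names, so the genes are described by their values and without a function.

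The libraries came from deseeded berries of the L1 microvine of Pinot Meunier, a dwarf grapevine that fruits in a growth room, and each is a single-end Illumina mRNA library of bulk tissue. Post-véraison berries were 12 to 14 weeks after flowering, and pre-véraison berries were 5 to 6 weeks after flowering. At each stage, berries at 38 °C were picked at 10 AM, 1 hour after the room was warmed, and berries at 16 °C were picked at 9 AM before warming. There were 2 biological replicates of each of the 4 combinations, per the series design text. Every heat comparison therefore also holds an hour of the morning, and the stage comparison holds the age of the berry. In bulk tissue, fewer cells of a type and less RNA per cell cannot be told apart.

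Véraison is the start of ripening, when a hard, green, acid berry softens, colours and fills with sugar, and much of its transcriptome is replaced. Heat acts within minutes through heat stress transcription factors, which switch on chaperone genes. Genes whose transcripts hold their level through such changes are often called housekeeping genes, and stable ones are sought as reference genes to which other transcripts are scaled. How steady a gene looks depends on what it is scaled to, and in sequencing data that is usually the whole library.

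The labelled stages and treatments were visible in genes known to mark them. The heat shock chaperone gene HSP101 had 65.2 and 45.7 RPKM at 38 °C, against 4.74 and 6.45 RPKM at 16 °C after véraison. Before véraison it had 944 and 1075 RPKM at 38 °C, against 7.12 and 6.34 RPKM at 16 °C. The ripening thaumatin-like gene TL3 lay between 11907 and 13205 RPKM in the post-véraison libraries, against 134 to 199 RPKM in the pre-véraison libraries. Library denominators recovered from the steps of the values were 8167704 to 11243341 reads after véraison and 6047199 to 8821163 reads before it. Between 23.9 and 26.6% of the recovered reads of a post-véraison library fell on its 10 most abundant genes, against 7.81 to 11.7% in a pre-véraison library.

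The steady genes lay at moderate levels. Their mean over the 8 libraries ran from 22.4 to 951 RPKM with a median of 48.7 RPKM, against a median of 56.1 RPKM for the 2901 other genes that passed the same floor and exclusions. Steady genes were 17.5% of the genes with a mean of 20 to 30 RPKM, 8.66% of those from 30 to 50, 9.98% from 50 to 100, 6.91% from 100 to 200 and 3.96% from 200 to 1000 RPKM. In the lowest of these classes, a mean near the floor leaves room only for genes of small spread. The ratio of highest to lowest had a median of 1.25 among the steady genes and was at most 1.1 in 2 of them and at most 1.2 in 71. The coefficient of variation over the 8 libraries ran from 3.14 to 11.1% with a median of 7.602%. Its median was 23.9% for the other genes, a gap that follows from the rule.

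**Figure D1:**
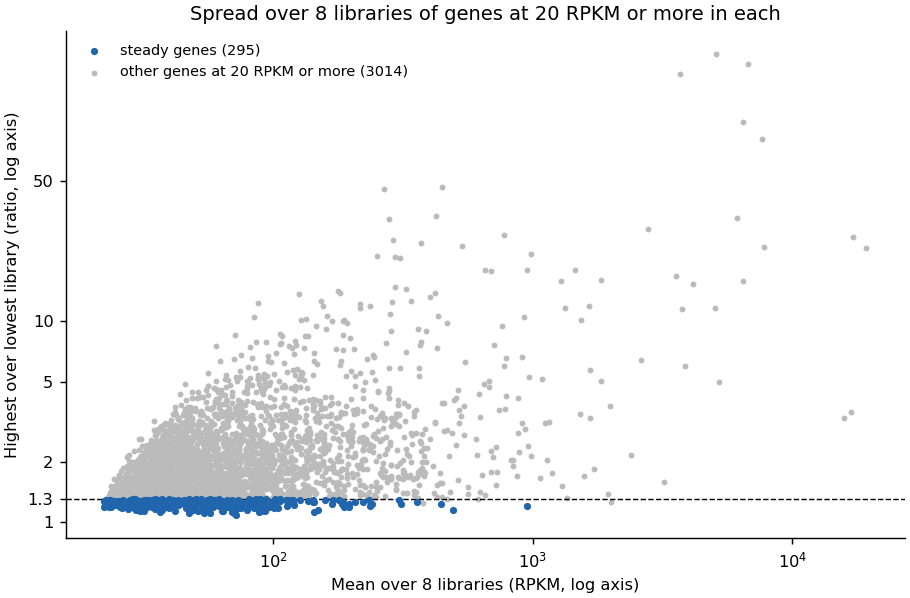
Ratio of the highest to the lowest of the 8 libraries (log axis) against mean RPKM (log axis) for the 3309 genes at 20 RPKM or more in every library, 1 point a gene. The dashed line marks the limit of 1.3, under which the 295 steady genes (blue) lie, mostly between 20 and 200 RPKM.

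The 10 placeholder-named members of lowest ratio had highest values only 1.09 to 1.13 times their lowest. LOC100242352 had 72.9 and 70.1 RPKM at 38 °C and 70.7 and 69.3 RPKM at 16 °C after véraison. Before véraison it had 74.7 and 70.0 RPKM at 38 °C and 75.4 and 74.2 RPKM at 16 °C, a ratio of highest to lowest of 1.09. The second heated pre-véraison library lay within the post-véraison range, and heated and unheated libraries overlapped at both stages. LOC100260069 had 73.6 and 70.5 RPKM at 38 °C and 71.4 and 72.1 RPKM at 16 °C after véraison. In pre-véraison berries the same gene had 68.4 and 67.4 RPKM at 38 °C and 73.4 and 71.8 RPKM at 16 °C, a ratio of 1.09. Its coefficient of variation, 3.14%, was the lowest of all 295. Its lowest values were those of the heated pre-véraison berries, and all 4 post-véraison values lay above them.

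LOC100262029 had 53.9 and 57.5 RPKM at 38 °C and 56.6 and 54.9 RPKM at 16 °C after véraison, and 60.01 and 59.8 RPKM at 38 °C and 58.4 and 57.0 RPKM at 16 °C before it. Its pre-véraison libraries were the higher ones on the whole, but the 2 stages overlapped. LOC100250634 had 54.5 and 51.3 RPKM at 38 °C and 52.9 and 52.0 RPKM at 16 °C after véraison. Its pre-véraison values were 55.3 and 52.1 RPKM at 38 °C and 56.4 and 57.1 RPKM at 16 °C, and only replicate 2 of the heated berries lay within the post-véraison range. LOC100249152 showed the same order, with 44.8 and 46.6 RPKM at 38 °C and 46.4 and 46.2 RPKM at 16 °C after véraison, and 49.7 and 46.3 RPKM at 38 °C and 49.9 and 49.7 RPKM at 16 °C before it. The same heated pre-véraison library was again the one that overlapped the post-véraison values.

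The other 5 named genes of lowest ratio lay between 1.12 and 1.13. LOC100265580 had 35.4 and 37.7 RPKM at 38 °C and 36.4 and 35.5 RPKM at 16 °C after véraison, and 37.7 and 34.6 RPKM at 38 °C and 37.3 and 38.9 RPKM at 16 °C before it. LOC100262767, at 82.8 to 93.2 RPKM, was lowest in replicate 1 of the unheated pre-véraison berries, while LOC100244194, at 134.6 to 151.9 RPKM, was highest in replicate 2 of that group. The highest and lowest libraries thus differed from gene to gene. LOC100249592 ranged over 84.4 to 95.4 RPKM and LOC100241344 over 29.8 to 33.8 RPKM. Their unheated post-véraison replicates were far apart within these ranges, at 93.0 and 84.4 RPKM for LOC100249592 and at 30.5 and 33.8 RPKM for LOC100241344.

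**Figure D2:**
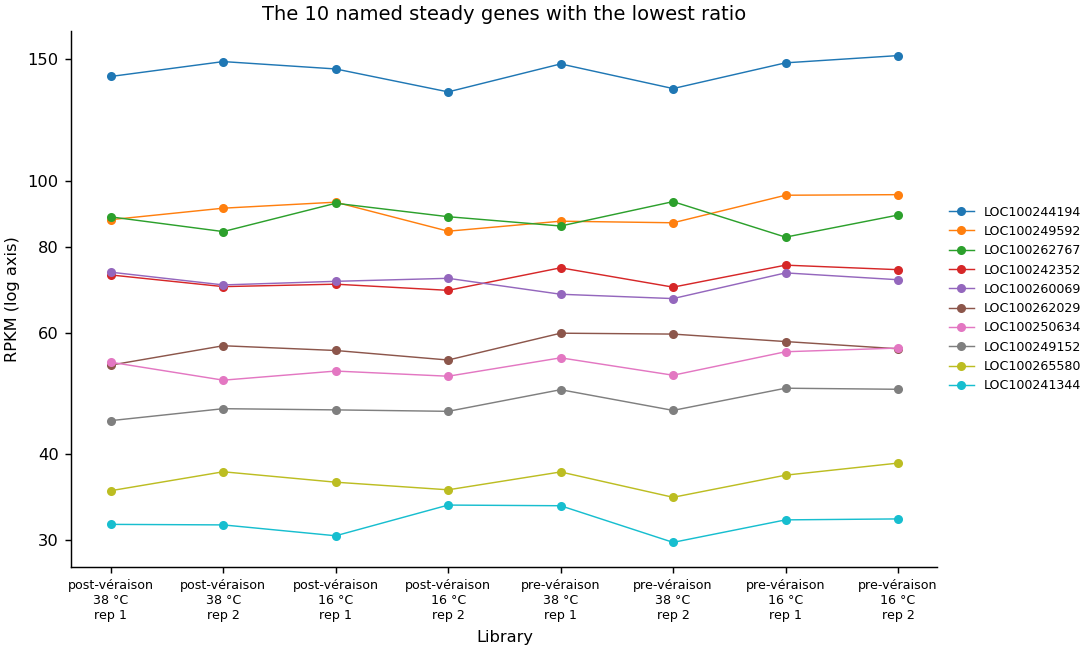
RPKM (log axis) in each of the 8 libraries for the 10 placeholder-named steady genes with the lowest ratio of highest to lowest, 1 line a gene and 1 point a library. The lines run nearly flat, with ratios from 1.09 to 1.13, and no library is the highest for all 10.

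The 6 most abundant named members lay between 240.3 and 951 RPKM on average. LOC100247119, the most abundant, had 945 and 948 RPKM at 38 °C and 1000.4 and 1066 RPKM at 16 °C after véraison. In pre-véraison berries it had 911 and 931 RPKM at 38 °C and 888 and 919 RPKM at 16 °C, so that all 4 post-véraison values were higher than all 4 pre-véraison values. Its ratio of stage means, post-véraison over pre-véraison, was 1.09. LOC100267988 had 514 and 532 RPKM at 38 °C and 492 and 509.8 RPKM at 16 °C after véraison, and 473 and 485 RPKM at 38 °C and 489.9 and 461 RPKM at 16 °C before it. Here too the post-véraison values were all above the pre-véraison ones, by a ratio of stage means of 1.07.

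LOC100244652 had 411 and 450.3 RPKM at 38 °C and 444 and 433 RPKM at 16 °C after véraison, and 414 and 425 RPKM at 38 °C and 504 and 475 RPKM at 16 °C before it. Its unheated pre-véraison libraries were above all others. LOC100253896 had 305 and 343 RPKM at 38 °C and 280.0 and 318 RPKM at 16 °C after véraison, and 321 and 303 RPKM at 38 °C and 342 and 286 RPKM at 16 °C before it. In 3 of its 4 groups the replicates were further apart than the highest and lowest group means were. LOC100246410 was the least even of the abundant members, with 331 and 317 RPKM at 38 °C and 335 and 341 RPKM at 16 °C after véraison, and 286 and 283 RPKM at 38 °C and 264 and 279 RPKM at 16 °C before it. Its groups of 4 did not overlap between the stages, and the ratio of stage means was 1.19. LOC100259138 had 257 and 266 RPKM at 38 °C and 236 and 243 RPKM at 16 °C after véraison, and 256 and 231 RPKM at 38 °C and 218 and 215 RPKM at 16 °C before it. Its unheated pre-véraison berries were the lowest group and the stages overlapped through the heated pre-véraison library of replicate 1.

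The 2 limits of the rule fell in dense parts of the distribution. Just inside the ratio limit were LOC100254350, LOC100250532, LOC100242117 and LOC100245656, which came up to the limit once rounded to 2 decimals. Just outside it were LOC100261610, also at the limit once rounded, LOC100248015 at 1.301, LOC100256869 at 1.302 and LOC100256882 at 1.302. Just above the floor, the lowest values of LOC100252397, LOC100252792, LOC100254265 and LOC100266288 lay between 20.1 and 20.3 RPKM. Just below it, LOC100245270, LOC100265192, LOC100266783 and LOC100243935 met the ratio limit with lowest values between 19.87 and 19.99 RPKM.

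Small differences between the stages remained inside the limit. The ratio of stage means, post-véraison over pre-véraison, ran from 0.82 to 1.22 over the 295 genes with a median of 0.99, and it was above 1 in 130 and below 1 in 165. Among the 2901 other genes its median was 0.79. All 4 post-véraison libraries lay above all 4 pre-véraison libraries in 15 steady genes, while 14.2% of the 16777 genes with at least 1 RPKM in 2 or more libraries showed this. They lay below all 4 in 21 steady genes, against 52.8% of those 16777 genes. The widest stage difference upward was that of LOC100245656, with 69.0 and 66.4 RPKM at 38 °C and 68.9 and 67.2 RPKM at 16 °C after véraison, and 54.0 and 53.1 RPKM at 38 °C and 56.8 and 58.1 RPKM at 16 °C before it. The widest downward was that of LOC100252123, with 92.4 and 92.6 RPKM at 38 °C and 92.8 and 91.1 RPKM at 16 °C after véraison, and 107 and 112 RPKM at 38 °C and 118 and 109 RPKM at 16 °C before it. In both genes the 2 stages did not overlap.

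The rule limited the size of any difference by temperature. A full order by temperature was about as frequent in the members as in all genes. All 4 libraries at 38 °C lay above all 4 at 16 °C in 7 of the 295 steady genes, and in 2.35% of the 16777 genes. They lay below all 4 in 5 steady genes, against 1.61% of the 16777. Within one stage the median difference between 38 and 16 °C on the scale of log2(RPKM + 1) was 0.04 after véraison and -0.05 before it. Over all 16777 genes the medians were 0.02 and -0.09. The members ran from -0.22 to 0.24 after véraison and from -0.32 to 0.31 before it.

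The series was also fitted with limma on log2(RPKM + 1) over all 16777 genes, all 295 members among them, with an adjusted p under 0.05 as a call. The rule had used every one of these contrasts, so the counts of members called are given beside the share of all genes and nothing is read from them. For heat before véraison 4 members were called, 1 higher and 3 lower, where 20.4% of all genes were called, 7.96% higher and 12.4% lower. For heat after véraison 0 members were called, against 1.25% of all genes. At an unadjusted limma p under 0.05, 1 member was higher and 0 lower there. Limma voom on recovered reads also called 0 members, against 309 of 16775 genes. For stage at 38 °C 23 members were called, 16 higher and 7 lower after véraison, against 70.3% of all genes, 17.2% higher and 53.0% lower. For stage at 16 °C the members called were again 23, 7 higher and 16 lower, against 71.9% of all genes, 14.9% higher and 57.0% lower. The interaction of stage and temperature was called in 0 members and in 7.47% of all genes. At an unadjusted limma p under 0.05, 13 members had a positive and 3 a negative interaction. Limma voom called 0 members, against 1259 of 16775 genes. The median interaction was 0.09 in the members and 0.12 over all 16777 genes. The share of all genes at an unadjusted p was not tabulated for heat after véraison or the interaction, so nothing is read from those counts. With 2 replicates a group, the 95% interval of a member's log2 difference reached a median of 0.23 to either side.

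The counts of members called for stage and for heat before véraison moved when a library was left out, and which calls were lost was not tabulated. Calls over all genes moved in those fits too. Each such fit leaves a single replicate in a group, so its counts are not given and nothing is read from them.

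The 4 members called for heat before véraison were singled out after their values were seen. The higher one was LOC100249446, with 40.9 and 39.2 RPKM at 38 °C and 34.7 and 33.4 RPKM at 16 °C after véraison, and 42.6 and 41.4 RPKM at 38 °C and 34.5 and 32.9 RPKM at 16 °C before it. Its heated libraries were above the unheated ones at both stages. Of the 3 lower ones, LOC100265711 had 27.5 and 28.6 RPKM at 38 °C and 27.6 and 27.1 RPKM at 16 °C after véraison, and 24.8 and 24.96 RPKM at 38 °C and 31.6 and 31.0 RPKM at 16 °C before it. Its post-véraison values lay between the heated and the unheated pre-véraison ones. LOC100247294 had 55.5 and 60.1 RPKM at 38 °C and 57.0 and 57.6 RPKM at 16 °C after véraison, and 49.6 and 47.9 RPKM at 38 °C and 59.6 and 61.2 RPKM at 16 °C before it. LOC100252149 had 33.8 and 32.4 RPKM at 38 °C and 33.8 and 31.2 RPKM at 16 °C after véraison, and 29.6 and 29.5 RPKM at 38 °C and 36.6 and 37.9 RPKM at 16 °C before it. In both, the temperatures overlapped after véraison and stood apart before it.

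Which genes counted as steady depended on the scale. RPKM sets every library to the same number of reads, and genes at 1000 RPKM or more held 41.4 to 44.7% of the summed RPKM of the post-véraison libraries, against 16.6 to 21.6% in the pre-véraison libraries. The median over all tested genes of the stage difference, post-véraison minus pre-véraison, was -0.45 at 38 °C and -0.52 at 16 °C on the log2 scale, while the median of the steady genes was 0.04 and -0.05. Median-ratio scaling divides each library by a factor that sets the typical gene to the same level. Those factors were 0.81 to 0.84 for the post-véraison libraries and 1.14 to 1.28 for the pre-véraison libraries.

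The smallest of the pre-véraison factors is more than 1.3 times the largest of the post-véraison ones, so a gene within the limit of 1.3 as deposited must have all post-véraison values above all pre-véraison values on that scale. This held for all 295 by arithmetic and is no finding about them. The ratio of stage means had a median of 1.45 (1.21 to 1.80), and the median log2 difference was 0.52 at 38 °C and 0.54 at 16 °C. For the same reason nothing is read from the limma calls on that scale, 291 members higher after véraison at 38 °C and 295 at 16 °C at an adjusted p under 0.05, beside 32.3% and 32.1% of all tested genes. Median-ratio scaling left 370 genes within the limits of 20 RPKM and 1.3, and 1 of them was a member, LOC100252123, at a ratio of 1.299. The placeholder-named members that spread furthest were LOC100246410, LOC100244278, LOC100263356 and LOC100259247, at ratios of 2.0001, 1.99, 1.99 and 1.99, where RPKM as deposited gave 1.29, 1.29, 1.28 and 1.26. Among the 10 steadiest, LOC100242352 had a ratio of 1.48 and LOC100260069 of 1.57 after this scaling. Quantile normalization kept 30 of the 295 members, and a common total over the genes under 1000 RPKM kept 14. Which of these scales is nearer to transcripts per cell was not tested.

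**Figure D3:**
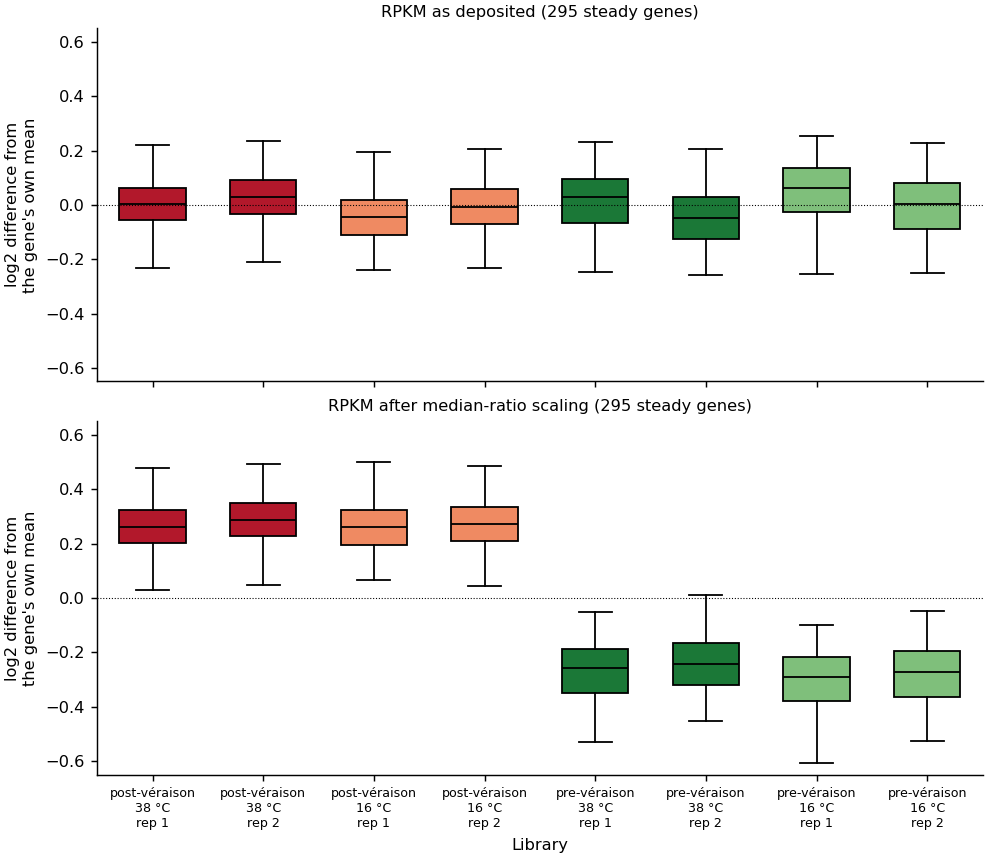
Difference on the log2 scale of each of the 295 steady genes from its own mean over the 8 libraries, with RPKM as deposited (top) and after median-ratio scaling (bottom). Boxes span the quartiles with the median as a line, and whiskers the full range. Library medians lie between -0.05 and 0.06 as deposited, and after scaling between 0.26 and 0.29 after véraison and between -0.29 and -0.24 before it.

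As deposited, the libraries themselves stood slightly apart. The members' median deviation from their own mean ran from -0.05 in replicate 1 of the unheated post-véraison berries to 0.03 in the second heated post-véraison library, and from -0.05 in the second heated pre-véraison library to 0.06 in replicate 1 of the unheated pre-véraison berries. That last library was the highest for 72 of the 295 genes, and the second heated pre-véraison library was the lowest for 79. Leaving these libraries out 1 at a time gave 413 and 383 genes within the limits, among them all 295 members by construction.

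Most genes at 20 RPKM or more in every library held their level through the hour at 38 °C. A smaller share of them did so through ripening. The floor leaves out genes that were low in any library. Of 3196 genes at 20 RPKM or more in all libraries, with the exclusions of the rule applied, 82.4% stayed within 1.3-fold over the 4 post-véraison libraries, heated and unheated together, and 60.6% over the 4 pre-véraison libraries. Across the stages, 27.6% stayed within 1.3-fold over the 4 libraries at 38 °C and 23.8% over the 4 at 16 °C. The order was the same with median-ratio scaling, at 83.4%, 63.5%, 24.3% and 23.0%. Within each stage taken alone 1716 genes were steady, and the 295 members were 17.2% of these. Of the other 1421, all post-véraison values were above all pre-véraison values in 342 and below them in 924. These 1421 were even within each stage and beyond the limit over all 8 libraries, a choice that favours such a separation. The counts are therefore no finding about them. Over the 16777 genes tested, which were not chosen in this way, 14.2% were above and 52.8% below. Both directions are for RPKM as deposited, and median-ratio scaling raises post-véraison values against pre-véraison ones.

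**Figure D4:**
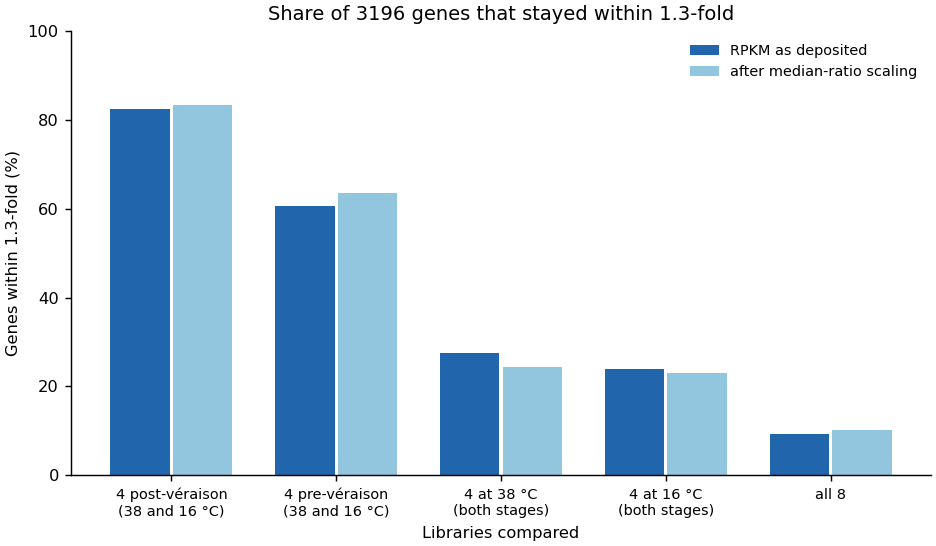
Share of 3196 genes, in percent, whose highest value was at most 1.3 times the lowest in the libraries named below each pair of bars, with RPKM as deposited (dark) and after median-ratio scaling (light). Bars for libraries of a single stage stand at 60.6 to 83.4%, and bars that span both stages at 9.23 to 27.6%.

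The rule was also applied to the libraries of each replicate number alone, which are separate biological replicates. In the 4 libraries of replicate 1, 625 genes met it, and 355 of them (56.8%) also met it in the 4 libraries of replicate 2, where 20.7% of the 3350 genes at the floor did. In the 4 libraries of replicate 2, 695 genes met it, and 355 of them (51.1%) also did so in replicate 1, where 18.6% of the 3360 genes at the floor did. All 295 members met it in each set by construction and are among the 355, so this overlap is no test of the members.

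The read counts behind the values put a limit on how fine a difference could be seen, and most members varied more than counting alone gives. Whole reads and gene lengths were recovered for all 295 members. The lowest library of a member held 85 to 7291 reads, with a median of 609, which gives a counting error (SD) of 4.05% at the median and 10.8% at the smallest. Dividing the variance of the reads over the 8 libraries by that expected from counting alone gave a median of 3.96 for the members and 41.8 for the other genes at the floor, where 1 is counting error only. Members were chosen for a small spread over these libraries, so lower values than in the other genes follow from the rule. The ratio was under 2 in 43 members and in 9 of the 2901 other genes, and under 1 in 8 members. It was 0.438 for LOC100252005 and 0.584 for LOC100248237, whose lowest libraries held 109 and 167 reads. At the other end stood LOC100246410 at 106, with 7291 to 17481 reads, and LOC100253872 at 36.2. These 4 were picked after their values were seen.

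**Figure D5:**
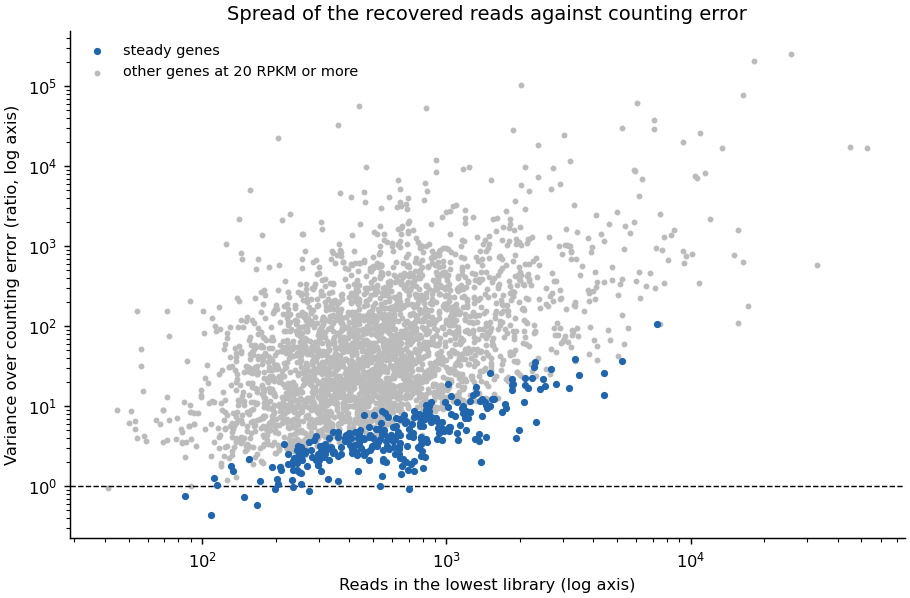
Variance of the recovered reads over the 8 libraries divided by that expected from counting error (log axis) against the reads in the gene's lowest library (log axis), 1 point a gene. The dashed line at 1 is counting error alone. Steady genes (blue), chosen for small spread, follow the lower edge of the cloud by the rule, with a median of 3.96.

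Gene length was not part of the rule. The recovered lengths of the members had a median of 1791 bp and quartiles of 1363 and 2519 bp, against 1466 bp with quartiles of 999 and 2057 bp for the other genes at the floor. At equal RPKM a longer gene has more reads. Divided into 5 classes of equal size by reads in the lowest library, the genes at the floor were members in 6.52, 7.38, 8.45, 11.8 and 12.1% from the fewest to the most reads. The part of read number in the difference in length was not tested.

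Position was not part of the rule either. In the order of the RefSeq annotation 278 could be placed, and 428 pairs of adjacent genes had both partners at the floor. In 3 of those pairs both were members: LOC100264285 with LOC100247145, LOC100252690 with LOC100247588, and LOC100249682 with LOC100259862. Of the adjacent genes at the floor, 7.89% of those beside members and 8.97% of those beside other genes were members. Levels within these pairs were 29.2 and 115, 188 and 96.5, and 23.3 and 22.5 RPKM.

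Of 81 genes with a symbol at the floor, 2 (2.47%) met the limit, against 9.17% of the 3228 genes without a symbol, a difference given without a test. The first was TM6, a MADS box gene of a class known from tomato to act in petals and stamens, with 110.3 and 120.1 RPKM at 38 °C and 108 and 104 RPKM at 16 °C after véraison, and 118 and 111 RPKM at 38 °C and 129 and 114 RPKM at 16 °C before it. The second was GRIP21, whose symbol belongs to a set of genes isolated as induced during grape ripening. It had 401 and 411 RPKM at 38 °C and 393 and 409 RPKM at 16 °C after véraison, and 362 and 348 RPKM at 38 °C and 364 and 329.9 RPKM at 16 °C before it. All its post-véraison values were above the pre-véraison ones, a ratio of stage means of 1.15.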

How the data were processed

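Messenger RNA of deseeded grape berries was measured in 8 libraries, 2 for each of 4 groups. The values are RPKM as deposited by the authors, 1 file a library and no pooling. Bowtie 0.12.7 and TopHat 1.2.0 are listed as tools, per the submitters' processing notes. Which genome build, annotation, counting tool and strand setting the authors used is not given in the sources used here. Reads of near-identical or overlapping genes may therefore be split or shared.

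The members and lists were chosen with earlier results of these data known. Numeric gene IDs were matched to the RefSeq table of assembly ASM3070453v1 for names and gene order only; 18647 of 25771 matched, 262 of them with a symbol other than a placeholder. Its coordinates were not used, since the build of the files is not named. The table holds no product names or sequences, so the 16 word lists matched 0 members and the 9 promoter motifs were not searched. Markers of seed tissue, known here only by product name, could not be looked up.

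Reads and gene lengths were worked out from the spacing of each gene's RPKM values, to within 0.02 of a whole number, for all 20845 genes above 0 in at least 3 libraries; a divisor common to all reads of a gene would go unseen. Counting errors cover counting only, and the interval of a log2 difference is limma's, from the spread between replicates. Tests were limma 3.58.1 in R 4.3.3 on log2(RPKM + 1), with a mean for each group, an intensity trend, two-sided p and Benjamini-Hochberg adjustment over the 16777 genes at 1 RPKM or more in at least 2 libraries (4 residual and 6.06 prior degrees of freedom). The fold changes of low genes are understated on that scale. All 295 members passed this filter by the rule itself. P-values measure only the spread between the samples deposited as replicates. The recovery and the fit were tested on simulated data. Other steps ran in Python 3.11.15 (pandas 2.3.3, numpy 2.4.6), and matplotlib 3.10.9 drew the figures.

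Named members are the 10 of lowest ratio, the 6 of highest mean, the 4 on either side of each limit and the 4 that median-ratio scaling moved furthest, without the unmatched; genes with a symbol that met both limits are also named. The alternatives were other limits, scalings, pseudocounts, filters, a fit without trend, a fit of only the libraries compared, limma voom on recovered reads, a replicate block and each library left out.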

Additional observations from a re-analysis of the deposited data

How the results depend on the processing

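The number of genes within the limits was 71 with a ratio limit of 1.2, 930 with 1.5, 427 with a floor of 10 RPKM and 125 with 50 RPKM. It was 625 and 695 in the libraries of replicate 1 and replicate 2 alone, 3022 and 2791 in the post-véraison and pre-véraison libraries alone, and 937 and 844 in those at 38 and 16 °C alone, where fewer libraries make the limit easier to meet. Without 1 library at a time it ran from 322 to 413, again with limits that are easier to meet. Median-ratio scaling, quantile normalization and a common total without genes at 1000 RPKM gave 370, 390 and 374 genes, with 1, 30 and 14 of the 295 members among them. Members called for stage at 38 °C (23) became 291 with median-ratio scaling and 237 with quantile normalization. They became 3 without trend and 12 with the replicate block. Calls over all genes, 11789 of 16777 at first, became 11158 of 16677 and 11080 of 16765 with these scalings. They became 11604 of 16777 without trend and 11630 of 16777 with the block. Members called for stage at 16 °C (23) became 295, 230, 5 and 14 under the same settings, 12 in a fit of just the 4 compared libraries, and 5 to 25 without 1 library. Members called for heat before véraison (4) became 8 with quantile normalization. They became 0 without trend, in a fit of just the 4 compared libraries and with the replicate block. Calls over all genes, 3417 of 16777 at first, became 3393 of 16765 with quantile normalization. In the other 3 settings they were 3252 of 16777, 3120 of 16048 and 3157 of 16777. Deviations of same-numbered replicates from their group means correlated between -0.052 and 0.025 across groups. With 2 replicates a group, these values cannot show whether same-numbered samples shared a batch or handling. Where 1 library was left out, the lone replicate was assumed to vary like the other groups. The cause was not tested. Heat after véraison and the interaction stayed at 0 called members under every alternative run. The members' median stage difference of 0.04 at 38 °C became 0.52 with median-ratio scaling and 0.38 with quantile normalization, and that of -0.05 at 16 °C became 0.54 and 0.36. The rule and the median-ratio factors together fix the direction of that shift under median-ratio scaling, and the calls that go with it carry no information about the members. Their median interaction of 0.09 became -0.0197 with median-ratio scaling. Depth limits the members with the fewest reads, where counting error alone is near 10.8%.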
